A study of Mus musculus with 10 samples.

Results

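The esophageal RNA of 68 mouse genes that encode aldehyde dehydrogenases, alcohol dehydrogenases, retinol and short-chain dehydrogenases and aldo-keto reductases was compared between animals with experimental eosinophilic esophagitis and their controls. Members were the protein-coding genes whose symbol starts with Aldh, Adh, Akr, Rdh or Dhrs followed by a digit. The deposited table listed 54446 genes, of which 21969 were protein-coding. By family there were 21 Aldh, 17 Akr, 14 Rdh, 10 Dhrs and 6 Adh genes.

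All mice were wild-type C57BL/6. The 5 control libraries (A1 to A5) came from esophagus of mice given vehicle, and the 5 OXA libraries (C1 and D1 to D4) from mice given the hapten oxazolone (OXA) to induce the disease, an allergic inflammation in which eosinophils enter the esophageal lining. RNA was counted by CEL-Seq, which reads the 3′ ends of polyadenylated transcripts. The sources used here do not give the dose, schedule or route of OXA, the sex or age of the animals, what the letters A, C and D stand for, or whether each library is 1 animal. The p-values therefore measure the spread between libraries, which may be technical.

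These enzymes move hydride between an alcohol, its aldehyde and the matching acid. In retinoid metabolism, vitamin A (retinol) is first oxidized to retinal by retinol and alcohol dehydrogenases, and retinal is then oxidized irreversibly to retinoic acid by the Aldh1a enzymes. Other short-chain dehydrogenases and aldo-keto reductases turn retinal back into retinol, and the Cyp26 enzymes degrade retinoic acid. In stratified squamous epithelium retinoids restrain cornification, while Aldh3 enzymes and other aldehyde dehydrogenases clear reactive aldehydes that arise from lipid peroxidation, alcohol and other chemicals.

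A value below is a normalized count, that is, a read count divided by a size factor of its library. Group levels are means ± SD over n = 5 libraries. Fold changes are differences of log2(value + 1) between OXA and vehicle with the standard error from limma, and a gene was called at a limma adjusted p under 0.05 over all 14712 genes whose mean reached 5. The added 1 makes fold changes of low genes smaller than they are. Vehicle libraries held 5094159 to 12108822 reads and OXA libraries 3675479 to 8364227. The keratinocyte and striated muscle markers, of cell types present in mouse esophagus, had reads in all 10 libraries. That alone does not identify the tissue, since the stomach markers Gkn1, Gkn2 and Tff1 did too. Of 9 suprabasal keratinocyte markers 7 were lower in OXA, and their summed level was 671253 to 1141680 in vehicle and 219224 to 573992 in OXA. Of 8 leukocyte markers 7 were higher, with sums of 1961 to 3739 against 5508 to 9007. In such bulk RNA fewer cells of a type and less RNA per cell cannot be told apart.

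Members that handle retinoids or detoxify aldehydes went both ways in OXA esophagus, and others were not called. Aldh1a3 and Aldh1a2, which make retinoic acid, rose, whereas Aldh1a1 and its near copy Aldh1a7, the retinol-oxidizing Adh7, the retinal-reducing Dhrs3 and Rdh12 and the detoxifying Aldh3a1, Aldh3b2 and Aldh2 fell. The retinol-oxidizing Rdh10 and the detoxifying Aldh3b1 rose as well, while Adh1, Aldh3a2 and 6 of the 9 tested retinal reducers were not called. Of the 68 members 9 were at 0 in all libraries. Another 14 had reads but stayed under the minimum mean, the highest of these at 4.95. Among the 45 tested members 7 (15.6%) were higher and 15 (33.3%) were lower, beside 15.7% and 14.2% of all tested genes. The share of higher members was therefore near the background, and the share of lower members above it. The median fold change was -0.19 in the members and -0.01 in all tested genes. The vehicle and OXA libraries did not overlap in 17 of the 45 members (37.8%), all of them called, and in 22.4% of all tested genes. Adh6a was the only tested member that reached the minimum mean through 1 group alone.

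By family 8 of 19 tested members were lower in Aldh (42.1%), 3 of 4 in Adh (75%) and 2 of 6 in Rdh (33.3%). With 1 of 7 in Akr (14.3%) and 1 of 9 in Dhrs (11.1%) the share was near the 14.2% of all tested genes. The Adh count includes Adh6a, which reached the minimum mean through vehicle alone. Increases numbered 4 in Aldh (21.1%) and 1 each in Akr, Dhrs and Rdh, with 0 in Adh, beside 15.7% of all tested genes. Members nearest the minimum mean were Akr1c14 (2.73), Dhrs2 (3.80) and Akr1c18 (4.95) below it and Aldh1b1 (8.69), Dhrs13 (9.17) and Rdh5 (10.4) above it.

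**Figure D1:**
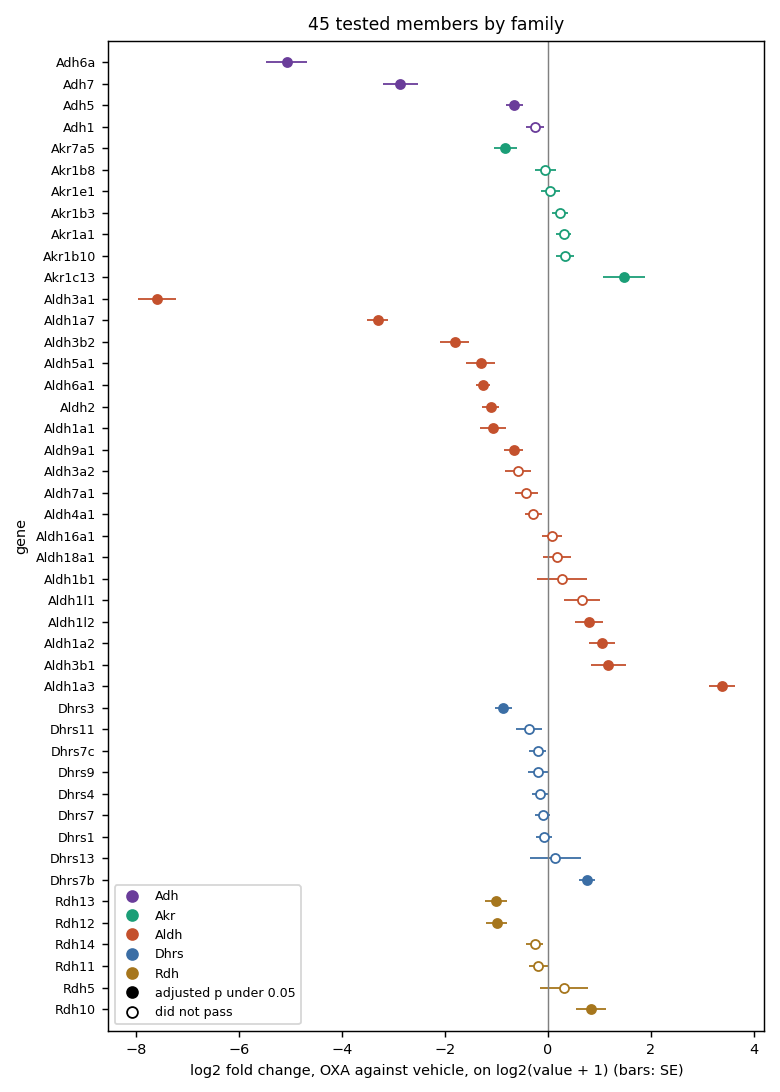
Fold change of each of the 45 tested members, OXA against vehicle, as a difference of log2(value + 1) on the x axis with the standard error as a bar; colors mark the 5 families and filled points passed at adjusted p under 0.05. Aldh spans the widest range, from -7.60 (Aldh3a1) to 3.38 (Aldh1a3), while 7 of 9 Dhrs and 5 of 7 Akr genes did not pass.

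The stretches just before the transcription start are shown for 4 called retinoid or alcohol dehydrogenase members among those with a RefSeq promoter. Each runs over 250 bases upstream of the start of a RefSeq gene model on GRCm38.p6, 5′ to 3′ on the gene's own strand. Capitals mark matches, on either strand, to the antioxidant response core TGACNNNGC (bound by NRF2) or the xenobiotic response core GCGTG (bound by the aryl hydrocarbon receptor). Adh7, the alcohol dehydrogenase of upper digestive epithelium, is at chr3:138217523-138217772 on the + strand. Adh6a lies in the same cluster, at chr3:138313036-138313285 on the + strand. Aldh1a7 is at chr19:20727557-20727806 on the - strand, and Aldh1a2 at chr9:71215539-71215788 on the + strand.
Adh7: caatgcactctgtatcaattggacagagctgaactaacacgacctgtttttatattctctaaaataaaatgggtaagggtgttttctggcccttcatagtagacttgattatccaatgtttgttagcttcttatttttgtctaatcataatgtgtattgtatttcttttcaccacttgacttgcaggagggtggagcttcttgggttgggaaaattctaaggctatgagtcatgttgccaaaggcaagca
Adh6a: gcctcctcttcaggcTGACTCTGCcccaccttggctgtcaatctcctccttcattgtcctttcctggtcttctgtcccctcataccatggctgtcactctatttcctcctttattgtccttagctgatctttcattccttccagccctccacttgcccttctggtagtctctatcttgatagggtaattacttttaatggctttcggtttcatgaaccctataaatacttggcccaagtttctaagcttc
Aldh1a7: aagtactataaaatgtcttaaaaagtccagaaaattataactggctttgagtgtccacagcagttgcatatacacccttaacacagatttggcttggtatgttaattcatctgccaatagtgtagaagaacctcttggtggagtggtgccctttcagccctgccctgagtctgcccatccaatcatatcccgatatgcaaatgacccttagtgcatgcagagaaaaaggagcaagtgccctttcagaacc
Aldh1a2: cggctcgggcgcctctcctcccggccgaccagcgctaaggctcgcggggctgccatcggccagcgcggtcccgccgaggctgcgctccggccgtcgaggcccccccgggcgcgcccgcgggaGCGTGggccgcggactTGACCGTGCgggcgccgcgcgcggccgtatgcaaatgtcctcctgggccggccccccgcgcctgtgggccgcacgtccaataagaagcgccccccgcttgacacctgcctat
The first 3 belong to genes that fell and the last to a gene that rose. The Adh7 and Aldh1a7 stretches held neither core. Adh6a held 1 match to the antioxidant core, and Aldh1a2 held 1 match to each, which did not overlap. RefSeq promoters were found for 54 of the 68 members (61 promoters). Aldh1a3, Aldh3a1, Aldh3b2, Aldh2, Rdh10, Rdh13 and Aldh1l2 are called members outside these 54 and so outside the counts that follow. The antioxidant core occurred in 5 of these 61 (8.20%) and in 10.2% of all 32851 promoters of that length, and the xenobiotic core in 15 (24.6%) and in 28.2%. The strict retinoic acid response element with 5 bases between its repeats was in 0 of 61 member promoters and in 3 of all promoters. Such matches describe letters in this window only.

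All 4 Aldh1a genes, whose enzymes turn retinal into retinoic acid except for Aldh1a7, were called. Of these 2 were higher and 2 lower, with no overlap between groups in any of them. Of all tested genes 15.7% were higher, 14.2% were lower and 22.4% did not overlap. Aldh1a3, a retinal dehydrogenase of epithelia (chr7:66390590-66427517, GRCm38, as all gene positions below) was 30.8, 21.8, 19.5, 21.3 and 17.2 in vehicle libraries A1 to A5. In OXA libraries C1 and D1 to D4 it was 276, 227, 377, 149 and 208. The lowest OXA library was thus far above the highest vehicle library. Mean levels were 22.1 ± 5.19 and 247 ± 85.3, an 11.2-fold rise, and the fold change was 3.38 ± 0.24 (limma adjusted p = 6.09e-07). Aldh1a2 (chr9:71215789-71296543), known as the main retinal dehydrogenase of embryonic mesoderm, was 94.5, 74.2, 112, 54.5 and 90.2 in vehicle and 218, 270.1, 181, 118 and 119.7 in OXA. C1 and D1 were its highest OXA libraries, and D3 and D4 lay just above vehicle A3. Its fold change was 1.05 ± 0.26 (limma adjusted p = 0.00716), with means of 85.1 ± 21.8 and 181 ± 65.2.

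Aldh1a1, a cytosolic retinal dehydrogenase of many tissues, fell. Aldh1a1 (chr19:20492715-20643762) was 831, 836, 907, 866 and 796 in vehicle, a narrow range, and 334, 709, 293, 612 and 249 in OXA. D1 and D3 kept the higher levels while C1, D2 and D4 were lower still. The fold change was -1.07 ± 0.25 (limma adjusted p = 0.00534). D1 and D3 were also the OXA libraries with the highest summed level of 13 striated muscle markers, at 315589 and 226625, against 86985 to 132796 in the other 3. With a striated muscle score as a covariate the Aldh1a1 fold change was -0.68 (limma adjusted p = 0.00127).

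Aldh1a7 (chr19:20692653-20727562) neighbors Aldh1a1 and encodes a closely related enzyme known for acetaldehyde rather than retinal. The level was 2026, 1792, 2679, 1967 and 2913 in vehicle and 232, 134, 246, 252 and 297 in OXA, so every OXA library was far below every vehicle library. The means were 2275 ± 490.0 and 232 ± 59.9, and the level fell 9.80-fold, with a fold change of -3.31 ± 0.21 (limma adjusted p = 1.69e-07). Within the last 500 bases of the transcripts 8.18% of the 50-base words of Aldh1a1 also occur in another gene, most often Aldh1a7, while 0% of those of Aldh1a7 do. Counting may therefore place some reads of this pair uncertainly.

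**Figure D2:**
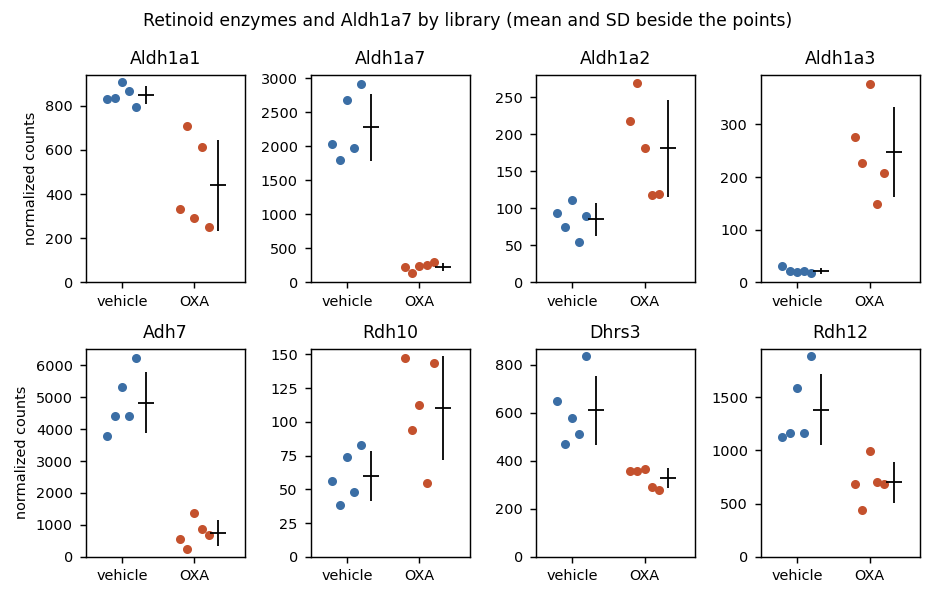
Normalized counts in each library of 7 enzymes of retinol, retinal and retinoic acid and of Aldh1a7, with the y axis starting at 0; each point is a library, in vehicle and in OXA, and the bar beside the points is the mean ± SD of the 5. Aldh1a2 and Aldh1a3 sit higher in OXA, Aldh1a1, Aldh1a7, Adh7, Dhrs3 and Rdh12 lower without overlap, and Rdh10 overlaps through D3 at 54.6.

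Of the enzymes that oxidize retinol to retinal 1 of 5 tested was higher and 1 lower (20% each), near the 15.7% and 14.2% of all tested genes. Adh7 (chr3:138217760-138233682), the class IV alcohol dehydrogenase with a high affinity for retinol, was 3777, 4403, 5309, 4415 and 6217 in vehicle. It was 568, 250.2, 1374, 882 and 677 in OXA, where D2 was highest and D1 lowest, still far under vehicle. Levels fell 6.43-fold on average, with a fold change of -2.87 ± 0.34 (limma adjusted p = 3.69e-05). Rdh10 (chr1:16105774-16134034), the principal retinol dehydrogenase of embryonic retinoic acid synthesis, was 56.5, 38.2, 74.0, 48.3 and 83.0 in vehicle and 147, 93.8, 112, 54.6 and 144 in OXA. The groups overlapped because D3 was below vehicle A1, A3 and A5. The rise of 0.84 ± 0.29 was called (limma adjusted p = 0.0399), but it was not called when A1, A2, A4, C1, D2 or D4 was left out (limma adjusted p from 0.0643 to 0.103), nor with the striated muscle score as a covariate (0.52, adjusted p = 0.136).

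Other retinol oxidizers did not pass. Adh1, the class I enzyme that clears ethanol and excess retinol, was 1132, 1064, 1665, 1286 and 1708 in vehicle and 1114, 1171, 1581, 1037 and 865 in OXA, almost the same range (-0.25 ± 0.18, limma adjusted p = 0.327). Dhrs9 was 129, 127, 176, 140.2 and 179 against 139.7, 89.6, 185, 123 and 134 (-0.19 ± 0.19, limma adjusted p = 0.503). For Rdh5, an enzyme of 11-cis-retinol in the eye, values were 11.3, 4.50, 3.90, 15.6 and 11.4 against 7.63, 14.9, 14.5, 15.3 and 4.79 (0.31 ± 0.47, limma adjusted p = 0.653). All 3 overlapped widely between groups. Rdh5, which had few reads, shares 720 exonic bases with Bloc1s1 on the same strand. The remaining 9 members of this step (Adh4 and the chromosome 10 genes of the Rdh1, Rdh7 and Rdh16 kind together with Rdh8) were not tested, 5 of them at 0 in all libraries and the rest at means up to 1.97.

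On the way back from retinal to retinol 3 of 9 tested members fell (33.3%) and 0 rose, beside 14.2% and 15.7% of all tested genes. Dhrs3 (chr4:144892827-144928509), a retinal reductase known to be induced by retinoic acid and to act together with Rdh10, was 651, 470.2, 579.8, 512 and 838 in vehicle. Its OXA values of 356, 358, 364, 290.2 and 276 lay close together and below all of these (-0.87 ± 0.16, limma adjusted p = 0.00131). Rdh12 (chr12:79208914-79222965), a retinal reductase best known from photoreceptors, was 1127, 1159, 1581, 1161 and 1882 in vehicle. In OXA it was 682, 442, 992, 699 and 682, with D2 nearest to vehicle (-0.996 ± 0.207, limma adjusted p = 0.00253). Rdh13 (chr7:4424470-4445649), a mitochondrial member, was 84.2, 99.7, 135, 104 and 165 against 61.8, 64.0, 65.2, 40.2 and 55.9 (-1.001 ± 0.214, limma adjusted p = 0.00307). The fall of each of the 3 held with any library left out. None of the 3 was called with the suprabasal keratinocyte score described below, which cannot be told apart from the treatment. There the limma adjusted p was 0.3265 for Dhrs3 and 0.501 for Rdh13, and Rdh12 turned to 0.21 (limma adjusted p = 0.58).

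The other 6 tested reducers overlapped between groups and did not pass. Rdh11, next to Rdh12 on chromosome 12, was 91.4, 99.7, 119, 108 and 114 against 90.8, 83.2, 67.0, 126 and 107. Rdh14 was 258, 192, 277, 207 and 217 against 156, 219.6, 159, 199 and 229.9. Dhrs4, a peroxisomal NADPH-dependent retinal reductase, was 165, 159, 202, 169 and 189 against 166, 156, 206, 152 and 121. Their fold changes of -0.19, -0.26 and -0.16 had standard errors of 0.18, 0.16 and 0.16. The aldo-keto reductases of this step are aldose reductase (Akr1b3) and its relatives. Akr1b3 was 121, 116, 159, 131 and 134 against 141, 155, 176, 176 and 131. Akr1b8 was 72.9, 96.0, 112, 86.2 and 147 against 111, 76.8, 121, 90.0 and 89.4, and Akr1b10 was 93.5, 75.8, 66.3, 93.5 and 83.0 against 98.5, 110.2, 83.3, 99.6 and 134. Their fold changes were 0.23 ± 0.15, -0.05 ± 0.21 and 0.34 ± 0.18, the smallest limma adjusted p being 0.158 (Akr1b10). Akr1b3 shares 45.5% of its 3′ words with other genes, most often Gm6644, so its level is uncertain.

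Retinoid genes outside these families were taken from 4 lists holding 57 genes of the table, 41 of them tested. Of the 41, 4 (9.76%) were higher and 8 (19.5%) lower, beside 15.7% and 14.2% of all tested genes. Their median fold change was -0.24. The groups did not overlap in 9 of them (22.0%), near the 22.4% of all tested genes. Among binding and storage genes Dgat1, which can esterify retinol, rose by 0.92 ± 0.25 (limma adjusted p = 0.0149). Ces1d, a carboxylesterase with retinyl ester hydrolase activity, went from 995 ± 227 to 179 ± 35.4 (-2.46 ± 0.18, limma adjusted p = 5.85e-07). Both cellular retinoic acid-binding proteins fell, Crabp2 from 2987 ± 737 to 1511 ± 142 (-0.95 ± 0.17, limma adjusted p = 0.000764) and Crabp1 from 31.6 ± 22.9 to 6.72 ± 5.59 (-2.03 ± 0.55, limma adjusted p = 0.0135). Crabp1 overlapped between the groups.

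Of the enzymes that remove retinoic acid, Cyp26b1 fell. It was 406, 244, 248, 172 and 192 in vehicle and 33.6, 67.5, 57.9, 44.0 and 104 in OXA, without overlap (-2.06 ± 0.29, limma adjusted p = 0.000151). Cyp2s1, an epithelial cytochrome P450 reported to metabolize retinoic acid, went from 637 ± 101 to 157 ± 59.2 (-2.10 ± 0.25, limma adjusted p = 4.14e-05). Cyp26b1 and Dhrs3, both known to be induced by retinoic acid, were lower in OXA, while Aldh1a3 and Aldh1a2 were higher. These genes were picked out here, and the listed target genes went both ways (2 higher, 4 lower and 8 not passed of 14 tested). The level of retinoic acid itself was not tested.

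Among 13 tested receptors and cofactors 1 rose and 1 fell (7.69% each). Rarg, the retinoic acid receptor of squamous epithelium, went from 772 ± 128 to 514 ± 119 (-0.60 ± 0.16, limma adjusted p = 0.0125), with D2 at 722 inside the vehicle range. Rarb, itself a classical retinoic acid target, was 64.7, 35.2, 29.2, 32.7 and 27.2 against 19.1, 27.7, 19.9, 23.9 and 11.2 and did not pass (-0.85 ± 0.31, limma adjusted p = 0.0535). Ppard, a nuclear receptor that can bind retinoic acid, rose by 0.39 ± 0.12 (limma adjusted p = 0.0306). Of 14 tested target genes 2 (14.3%) were higher and 4 (28.6%) lower, beside 15.7% and 14.2% of all tested genes. They include Cyp26b1 and Crabp2, described above, and Rarres1 (34.1 ± 14.6 to 3.81 ± 2.26, near the 3-read floor in OXA, -2.89 ± 0.43, limma adjusted p = 0.000208), Hoxa4 (-1.07 ± 0.35, limma adjusted p = 0.0337) and Cd38 (1.26 ± 0.41, limma adjusted p = 0.034). The calls of Ppard, Cd38 and Hoxa4 each depended on single libraries. Ppard was not called without A1, A2, A3, A4, C1, D1 or D3, Cd38 without A2, A3, A4, A5, C1, D1 or D4, and Hoxa4 without any vehicle library or without C1 or D1. Over all alternatives in which they were lost the limma adjusted p ran from 0.0504 to 0.582 for Ppard, from 0.0518 to 0.97 for Cd38 and from 0.0513 to 0.0721 for Hoxa4. The upper ends of Ppard and Cd38 came with the suprabasal keratinocyte score described below, where Cd38 was at -0.065. In that fit Rarg was at 0.097 (limma adjusted p = 0.844) and Crabp1 at 0.18 (limma adjusted p = 0.932). Dgat1 (0.255, limma adjusted p = 0.787) and Cyp2s1 (-0.598, limma adjusted p = 0.18) were not called there either. The same held for Crabp2 (-0.542, limma adjusted p = 0.271) and Rarres1 (-2.41, limma adjusted p = 0.099). Ces1d, Cyp26b1 and Hoxa4 stayed called in that fit.

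**Figure D3:**
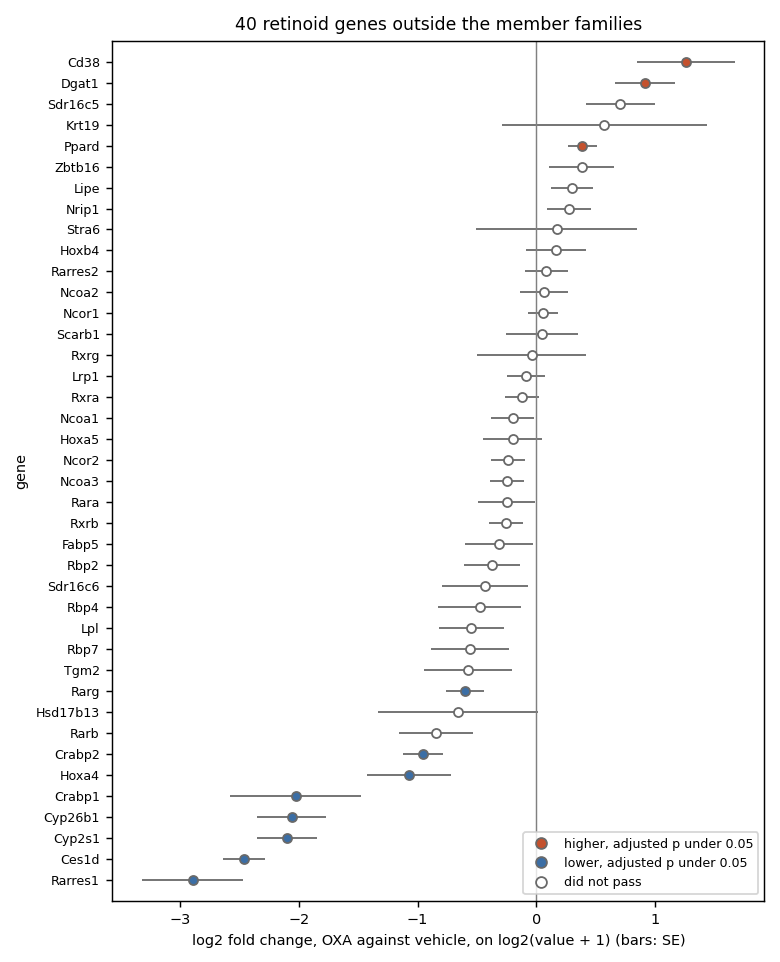
Fold change of 40 retinoid genes outside the member families, OXA against vehicle, as a difference of log2(value + 1) on the x axis with the standard error as a bar; red points were higher and blue points lower at adjusted p under 0.05, and white points did not pass. Cd38 (1.26) is the highest shown and Rarres1 (-2.89) the lowest, and 29 of the 40 did not pass.

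Enzymes of lipid-derived and foreign aldehydes changed in both directions within the Aldh3 group. Aldh3a1 (chr11:61207537-61218721), known as the corneal crystallin and a detoxifier of medium-chain and aromatic aldehydes, was 16884, 17545, 25548, 17102 and 31033 in vehicle. In OXA it was 124, 78.2, 241, 144 and 41.5, the largest fall of any member (-7.60 ± 0.36, limma adjusted p = 2.06e-08). Aldh3b2 (chr19:3972328-3981945), an enzyme of lipid droplets, was 1159, 1191, 1679.8, 1386 and 2070.5 in vehicle and 464, 205, 751, 444 and 391 in OXA. Its OXA libraries stayed below vehicle, D2 being nearest (-1.81 ± 0.28, limma adjusted p = 0.000281). Aldh3b1 (chr19:3913193-3929761), which acts on aldehydes of lipid peroxidation and lies beside Aldh3b2, went the other way. It was 11.3, 6.75, 7.80, 7.79 and 14.3 in vehicle and 22.9, 21.3, 38.0, 16.3 and 17.6 in OXA, a narrow but complete separation (1.18 ± 0.34, limma adjusted p = 0.0171). Aldh3a2, the fatty aldehyde dehydrogenase next to Aldh3a1, did not pass (58.7 ± 7.10 to 40.5 ± 12.9, -0.59 ± 0.25, limma adjusted p = 0.0956).

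Mitochondrial aldehyde dehydrogenases fell in 3 of 7 cases (42.9%) and rose in 0, beside 14.2% and 15.7% of all tested genes. Aldh2 (chr5:121565727-121593824), the main enzyme of acetaldehyde, was 1306, 1221, 1136, 1301 and 1391 in vehicle and 611, 785, 603, 638 and 375 in OXA (-1.11 ± 0.17, limma adjusted p = 0.000299). Aldh6a1, the methylmalonate semialdehyde dehydrogenase of valine breakdown, was 179.8, 185, 182, 209 and 180.3 in vehicle and 65.7, 78.2, 77.8, 85.2 and 83.0 in OXA (-1.26 ± 0.14, limma adjusted p = 2.23e-05). Both groups were tight and far apart. Aldh5a1, which clears succinic semialdehyde, was 155, 150.0, 201, 178 and 279 against 75.6, 42.6, 139, 91.9 and 57.5 (-1.31 ± 0.28, limma adjusted p = 0.00308). D2 came closest to vehicle. Aldh6a1 shares 1078 exonic bases with Bbof1 on the opposite strand and Aldh5a1 203 with 9330162012Rik, and the sources used here do not say whether counting used strand. Aldh1b1, Aldh4a1, Aldh7a1 and Aldh18a1 did not pass, with fold changes from -0.42 to 0.27.

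Outside retinoids the Adh genes fell too. Adh6a (chr3:138313286-138331434) was 36.0, 48.0, 49.7, 36.9 and 37.2 in vehicle, whereas 3 OXA libraries held no read and C1 and D1 held 0.76 and 0.71. That is 247 reads in vehicle and 2 in OXA. After scaling by the size factors the OXA level was 0.977% of vehicle (exact 95% interval 0.118% to 3.57%, for counting error only, since reads counted without molecular identifiers would not be independent molecules). The fitted fold change was -5.08 ± 0.40 (limma adjusted p = 1.2e-06) and depends on the added 1. Adh5, the glutathione-dependent formaldehyde dehydrogenase made in most cells, fell less, from 475 ± 83.6 to 303 ± 58.1 (-0.65 ± 0.16, limma adjusted p = 0.00787). In the cluster of 6 Adh genes at chr3:138217760-138455799, Adh7, Adh6a and Adh5 fell, Adh1 did not pass, and Adh6b and Adh4 were not tested.

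Aldehyde dehydrogenases of folate, carnitine and other substrates gave 1 rise and 1 fall in 4 tested (25% each). Of all tested genes 15.7% were higher and 14.2% lower. Aldh9a1, an enzyme of carnitine synthesis, went from 357 ± 76.4 to 226 ± 51.3 with overlap through C1 (-0.66 ± 0.18, limma adjusted p = 0.0146). It was not called without A5, D2 and D4 (-0.55, limma adjusted p = 0.0566). The mitochondrial folate enzyme Aldh1l2 went from 55.5 ± 4.78 to 105 ± 42.5 (0.80 ± 0.27, limma adjusted p = 0.0357). D2 (148) and D4 (147) were highest, while D1, at 49.0, was below every vehicle library. Leaving out any library but D1 ended the call (limma adjusted p from 0.052 to 0.083). Aldh1l1 (0.66 ± 0.35) and Aldh16a1 (0.07 ± 0.20) did not pass. Aldh1l2 also shares 1056 exonic bases with D10Wsu102e on the opposite strand.

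Of 7 tested aldo-keto reductases 1 was higher and 1 lower (14.3% each), a share near that of all tested genes. Akr1c13, a hydroxysteroid dehydrogenase, was 4.11, 7.50, 6.82, 3.12 and 17.2 in vehicle and 18.3, 26.3, 21.7, 14.4 and 22.4 in OXA (1.48 ± 0.41, limma adjusted p = 0.0153). The groups overlapped through vehicle A5 and D3, and 12.0% of its 3′ words occur in Akr1c12. Akr7a5, a reductase of succinic semialdehyde and aflatoxin dialdehyde, went from 124 ± 34.2 to 68.6 ± 14.1 (-0.83 ± 0.22, limma adjusted p = 0.0123), overlapping through vehicle A1. Akr1a1 (0.31 ± 0.14) and Akr1e1 (0.05 ± 0.19) did not pass, and the other 9 steroid and prostaglandin reductases were not tested. Among the remaining Dhrs genes Dhrs7b, a peroxisomal enzyme of ether lipid synthesis, rose, with all OXA libraries above all vehicle libraries. It was 178, 131, 148, 135 and 180.3 in vehicle and 239.7, 259, 241, 229 and 337 in OXA (0.75 ± 0.15, limma adjusted p = 0.00232). Dhrs1, Dhrs7, Dhrs7c, Dhrs11 and Dhrs13 did not pass, with fold changes from -0.36 to 0.14. Akr1b7, Aldh3b3, Aldh8a1 and Dhrs2 were not tested, Aldh8a1 being at 0 in all libraries.

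**Figure D4:**
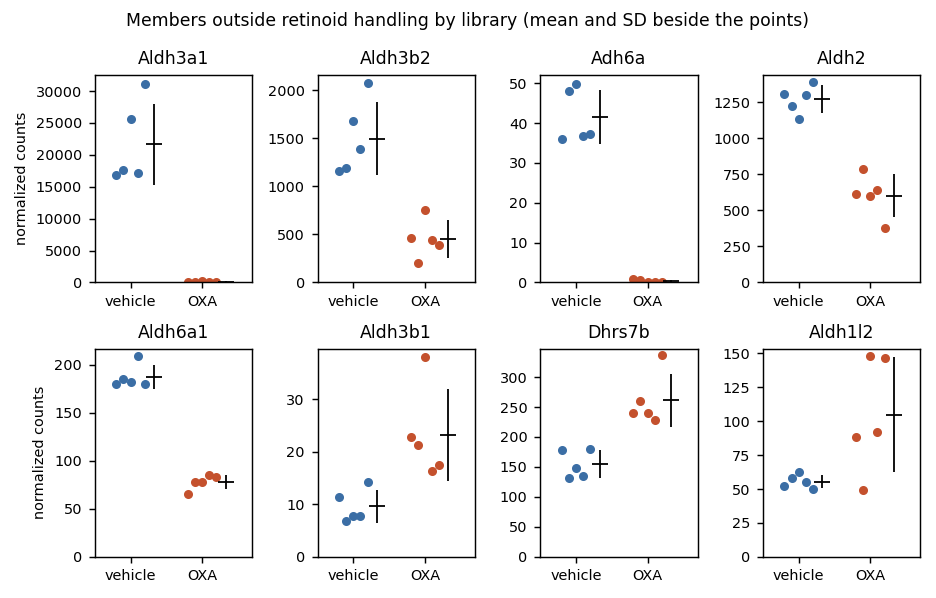
Normalized counts in each library of 8 members outside retinoid handling, with the y axis starting at 0; each point is a library, in vehicle and in OXA, and the bar beside the points is the mean ± SD of the 5. Aldh3a1, Aldh3b2, Adh6a, Aldh2 and Aldh6a1 sit lower in OXA and Aldh3b1 and Dhrs7b higher, all without overlap, whereas D1 (49.0) places Aldh1l2 in OXA below every vehicle library.

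Certain libraries were often at the top of their group. Of the 15 members that fell, A5 had the highest vehicle value in 12 and D2 the highest OXA value in 9. A5 (1141680) and D2 (573992) were also the libraries with the highest summed suprabasal keratinocyte markers of their groups. They held the fewest reads of their groups as well (5094159 and 3675479). The part of marker content or of depth in these ranks was not tested. At the bottom the members and the marker sum differed in order. A1 was the lowest vehicle library in 9 of the 15 and A2, with the lowest sum (671253), in 4. D4 was the lowest OXA library in 6 and D1, with the lowest sum (219224), in 5. Aldh1a1 and Aldh2 had their highest OXA value in D1. Among the 7 higher members A5 was again most often the highest vehicle library (4) and D2 the highest OXA library (3), while D3 was the lowest OXA library in 6. Without A5, D2 and D4 together, 14 members were lower and 5 higher. With a suprabasal keratinocyte score as a covariate, an alternative chosen after seeing the data, 6 members were lower and 6 higher. Of the 7 called higher without the score, only Aldh1a3, Aldh3b1 and Aldh1l2 were among these 6. Akr1c13, Aldh1a2, Dhrs7b and Rdh10 lost their calls, and the rest of the 6, such as Dhrs9, had not passed without the score. Over all tested genes 1029 were lower and 1065 higher with the score, against 2085 and 2309 without it. That score was 0.551 to 1.29 in vehicle and -1.69 to 0.0168 in OXA, so it and the treatment cannot be told apart. In that fit Adh7 was at -0.91 (limma adjusted p = 0.155), Aldh3b2 at -0.05 (0.916) and Rdh12 at 0.21 (0.58), while Aldh1a1, Aldh1a7, Aldh2, Aldh3a1, Aldh6a1, Adh6a and Aldh1a3 stayed called in their direction. Aldh1a2 had nearly the same fold change there (1.05) with a limma adjusted p of 0.229.

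**Figure D5:**
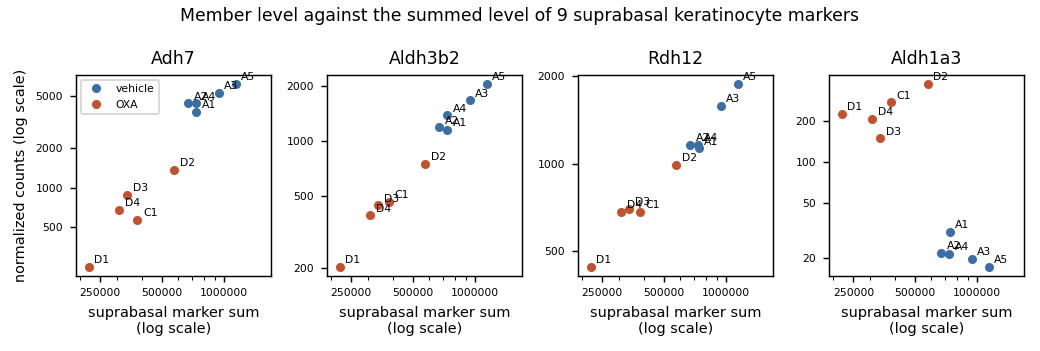
Normalized counts of Adh7, Aldh3b2, Rdh12 and Aldh1a3 on the y axis against the summed level of 9 suprabasal keratinocyte markers on the x axis, both logarithmic, with 1 point for each of the 10 libraries; the 4 genes were chosen after their values were seen. D2, at 573992, is the OXA point nearest to vehicle on the x axis and the highest OXA point in all 4 panels. Aldh1a3 in OXA runs from 149 (D3) to 377 (D2).

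Regulators and neighboring pathways were counted from lists as well. Of 30 tested NRF2 target genes 19 (63.3%) were lower and 3 (10%) higher, beside 14.2% and 15.7% of all tested genes. Their median fold change was -0.76. They include the glutathione transferase Gstm1 (-2.03 ± 0.19) and the quinone reductase Nqo1 (-2.27 ± 0.25), both lower. Slc7a11 (1.60 ± 0.26) and Gsr (0.98 ± 0.15) were higher. These named genes kept their calls with the suprabasal keratinocyte score. Many of the other lower ones did not, among them Gsta2 (-1.10, limma adjusted p = 0.11) and Gsta4 (-0.50, limma adjusted p = 0.242). The aryl hydrocarbon receptor pathway induces Aldh3a1 in liver cells. Of 6 tested genes listed for it 1 (16.7%) was higher and 2 (33.3%) were lower, beside 15.7% and 14.2% of all tested genes. Nqo1, already counted among the NRF2 targets, is among the lower genes. Nfe2l2, the gene of NRF2 itself, is in the same list and did not pass (-0.36 ± 0.20, limma adjusted p = 0.178). Ahr, the receptor, went from 94.4 ± 17.7 to 46.8 ± 13.1 (-1.02 ± 0.21, limma adjusted p = 0.00282), while Cyp1b1 rose from 25.7 ± 7.14 to 74.0 ± 29.1 (1.45 ± 0.31, limma adjusted p = 0.00285). With the suprabasal score neither Ahr (limma adjusted p = 0.305) nor Cyp1b1 (limma adjusted p = 0.27) was called. Some markers of stomach and airway, tissues beside the esophagus, had reads too. Of 8 stomach markers 4 were tested and Gkn2 was lower (83.3 to 25.2). The sums of the 8 were 95.6 to 456 in vehicle and 42.1 to 263 in OXA. Tff1 was the highest of them, at 161 ± 101 in vehicle and 83.3 ± 73.4 in OXA. Of 8 airway markers 2 were tested and Scgb1a1 was lower, with sums of 40.5 to 79.9 and 4.97 to 96.7. The part of either in the member values was not tested.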

How the data were processed

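Whole-esophagus RNA of 10 mouse libraries was measured, 5 vehicle and 5 OXA, grouped by the labels. The authors deposited 1 table of normalized counts, a signal per gene made by dividing counts by a size factor per library. Per the submitters' processing notes, the build was GRCm38 and the tools named, with no roles, were HTSeq 0.11.2, TopHat2 2.1.0, DESeq2 1.18.1, Bowtie2 2.2.6, cutadapt 1.10, FastQC 0.11.5 and Trim Galore. Dividing by the smallest step of each library returned whole reads in 100% of values, to within 0.006. The sources used here do not give the annotation, strand setting or any use of molecular identifiers. In all 64 members whose version matched GENCODE M21, the table's 3′ end lay 300 bases beyond that annotation.

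limma 3.58.1 (R 4.3.3) with a mean-variance trend was fitted on log2(value + 1) over all 10 libraries, two-sided, with no covariate, for 14712 genes whose mean reached 5, with Benjamini-Hochberg adjustment over all of them. The members, lists and alternatives were chosen with earlier results of these data known. Any member could be named. Values of every library are given for tested members that handle retinoids and for other called members with a fold change of at least 1 in size, plus Dhrs7b, which was chosen after its values were seen. Outside the families at most 6 genes of a list were named, by smallest p, together with Slc7a11 and Gsr, also chosen after their values were seen. A listed retinoid gene is counted but not reported here. Alternatives were 2 other pseudocounts, 3 filters, scaling to library totals, quantile normalization, edgeR 4.0.16 and DESeq2 1.42.0 on recovered reads, a muscle score, a replicate block and leaving out libraries. On recovered reads edgeR called 2411 genes higher and 1972 lower.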

Additional observations from a re-analysis of the deposited data

Results flagged for a closer look

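Aldh6a1 in vehicle was the only value among 90 groups of 5 libraries, 2 for each tested member, in which a library stood apart by Dixon's gap criterion. A4 was at 209.3, while the other 4 vehicle libraries lay between 179.76 and 185.24. The gap was 0.803 of the range, on the log2(value + 1) scale, against a limit of 0.71. Chance gives about 1 such group in 20. All vehicle libraries remained above the highest OXA library.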

How the results depend on the processing

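Of the 7 members called higher, 1 (Aldh1a3) kept its call in all 23 alternatives, and of the 15 called lower, 6 did (Adh6a, Aldh1a1, Aldh1a7, Aldh2, Aldh3a1 and Aldh6a1). Without the filter on low values 4 members were higher instead of 7, and 2 other retinoid genes instead of 4; more genes entered the adjustment there. Leaving out each library in turn gave 5 to 7 members higher, 15 lower, and 2 to 4 other retinoid genes higher. The libraries whose absence left 2 of these were A2, A3, A4 and C1. Counts by edgeR and DESeq2 were 7 higher and 15 lower with each. Scaling to library totals moved the share of calls that were higher from 52.5% to 65.4% of all called genes and the median of all tested genes from -0.01 to 0.11; 8 members were then higher and 15 lower.

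The replicate block, by the number in the titles, gave 6 members higher and 13 lower, 2 other retinoid genes higher and 6 lower. Among genes named above, Rdh10, Akr7a5 (limma adjusted p = 0.066), Aldh9a1 (0.075), Rarg (0.0608), Crabp1 (0.0622), Hoxa4, Ppard and Cd38 were not called with the block. Deviations of same-numbered libraries correlated from -0.23 to 0.19 and 1 of the 4 vehicle libraries with a partner, A1, matched best with its own number, so the number is not known to pair samples. Akr1b8, which did not pass in any fit, changed sign in 6, to 0.0779 with library totals, 0.12 with the block, 0.0154 without A5, D2 and D4, 0.0882 without A5, 0.03 without D1 and 0.85 with the suprabasal score; leaving out single libraries gave -0.16 to 0.09. The suprabasal score, chosen after seeing the data and not separable from treatment, left 6 members lower and also reversed Adh1 (0.42), Akr1b10 (-0.0497), Aldh5a1 (0.26), Dhrs4 (0.31), Dhrs9 (0.86, limma adjusted p = 0.042) and Rdh12 (0.21). The cause was not tested. For the 14 members with reads under the minimum mean no test was made; 3 reads there equal 2.82 normalized counts in vehicle and 3.50 in OXA on average.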
